A study of Homo sapiens with 4 samples.

Results

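The ETS and SOXF transcription factors of endothelium were followed in CD31+ cells collected at day 8 of hematopoietic differentiation of H1, a widely used line of human embryonic stem cells. The genes were chosen by name: 7 ETS genes (ETV2, ERG, FLI1, ETS1, ETS2, ELK3 and ETV6) and the 3 SOXF genes (SOX7, SOX17 and SOX18). Each symbol matched 1 row of the deposited table, so all 10 were found among 58229 genes, and all 10 passed the filter on low values that left 14622 genes for testing. The comparison set 2 libraries from H1 with HAND1 overexpression (HAND1_OE), HAND1 being a basic helix-loop-helix transcription factor, against 2 libraries from H1 without it (Control). Both groups had gone through the same stepwise culture, first with activinA and BMP4 and then with VEGF and bFGF. The vector, its promoter and the number of clones are not given in the sources used here, and nothing in the labels says that the libraries of a group came from separate cultures, so p-values measure the spread between libraries, which may be technical. The study raised HAND1 to ask what it does to blood formation from CD31+ precursors, and the values here show where the endothelial factors stood in those cells.

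ETS factors bind DNA at sites with a GGAA core, and most enhancers of endothelial genes carry several such sites. ETV2 acts early and briefly, when mesoderm turns to endothelium and blood, while ERG, FLI1 and ETS1 keep endothelial genes on afterwards. FLI1 and ERG also work in blood stem cells and megakaryocytes. SOXF factors are high mobility group proteins that act beside ETS factors in arterial and lymphatic endothelium, and SOX17 is known to support hemogenic endothelium.

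HAND1 was checked first. Its level was 12.1 and 14.3 FPKM in Control and 520.5 and 517 FPKM in HAND1_OE, where FPKM counts fragments scaled to transcript length and to the mapped total of the library. The difference of log2(FPKM + 1) was 5.20 (standard error 0.152, limma adjusted p = 0.00145). The sum of FPKM ranged from 536284 to 606609 across the libraries, and relative depth, read from the step of a single fragment in low single-exon genes, from 0.979 to 1.18 of Control replicate 1. The endothelial identity of the cells was checked with 11 markers. Their summed level was 2225 and 1742 FPKM in Control and 2231 and 1946 FPKM in HAND1_OE, and EGFL7, a secreted endothelial protein, made up the largest part of it. Single markers differed in direction: 1 was called higher (VWF) and 1 lower (CLDN5), beside 2.04% and 2.11% of all genes tested. The differences of the other 9 ran from -1.32 (ROBO4) to 1.33 (EMCN) without passing. All 11 are also among the target genes of ETS and SOXF factors described further on. PECAM1, which encodes the CD31 protein used to define the cells, was at 95.5 and 141 FPKM in Control and 92.0 and 160.2 FPKM in HAND1_OE. The groups overlapped in the sum and in PECAM1.

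Of the 10 factors, SOX18 alone passed the test over all genes, and it fell. With limma, 1 member was called lower and 0 were called higher at an adjusted p under 0.05, and at an unadjusted p under 0.05 the counts were 3 lower (SOX18, FLI1 and SOX7) and 0 higher. Among all 14622 genes tested, 2.11% were called lower and 2.04% higher, and the unadjusted shares were 10.6% lower and 6.82% higher. Both HAND1_OE libraries lay under both Control libraries for 4 members (SOX18, FLI1, SOX7 and ETV6), as they did for 30.1% of all genes. Both lay over both Control libraries for 2 members (ELK3 and ETS2), as they did for 16.2% of all genes, and the groups overlapped for the other 4. The median difference over the members was -0.25 on the log2 scale, beside -0.078 over all genes tested. Without Control replicate 2 it was -0.089, beside -0.098 over all genes, and with median-ratio scaling it was -0.15, beside 0.018.

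**Figure D1:**
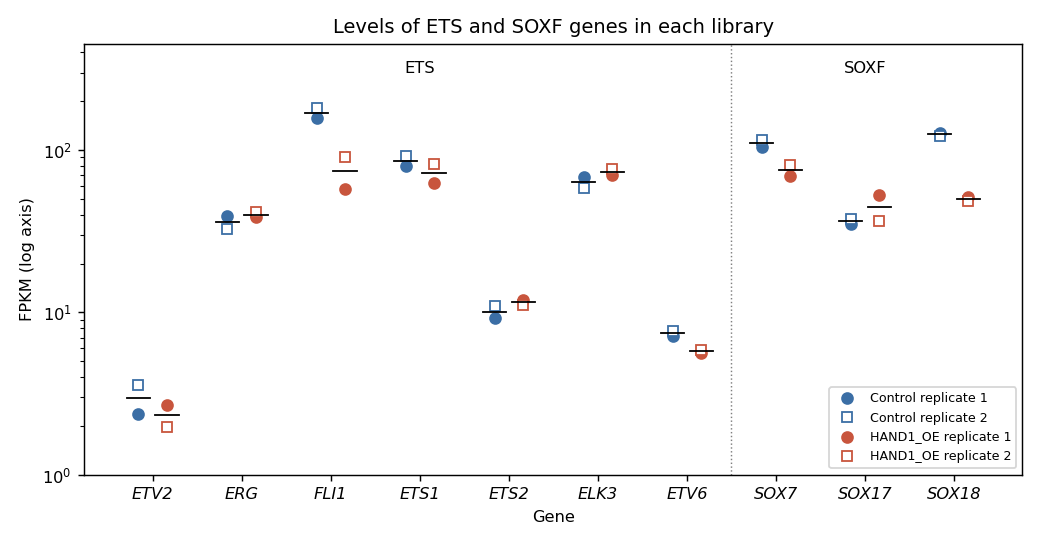
FPKM on a log axis of each ETS and SOXF gene in the 2 Control and 2 HAND1_OE libraries, with points for libraries and black bars for group means. SOX18, FLI1, SOX7 and ETV6 are lower in both HAND1_OE libraries than in either Control library, and FLI1 goes from 157 and 180.4 FPKM to 57.4 and 91.2 FPKM.

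The SOXF genes were considered next. SOX18 (ENSG00000203883.6, GRCh38 chromosome 20, 64047582 to 64049641, minus strand) encodes the SOXF factor best known for its part in lymphatic and vascular development. Its level was 127 and 123 FPKM in Control and 51.3 and 48.3 FPKM in HAND1_OE. The groups lay far apart compared with the spread within each. The mean went from 125 ± 2.99 to 49.8 ± 2.08 FPKM (SD, n = 2 each), a difference of -1.31 (standard error 0.139, 95% interval -1.65 to -0.96, limma adjusted p = 0.0121), or 0.404 of the Control level on the log2(FPKM + 1) scale. The call did not hold when each of 29860 genes above 0 in any library was tested, where 0 genes of any kind were called (adjusted p = 0.153, unadjusted p = 0.000256). With 2 libraries against 2, an exact two-sided permutation test cannot give a p below 0.333 for any gene.

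SOX7 (ENSG00000171056.7, chromosome 8, 10723768 to 10730512, minus strand), a SOXF factor of early endothelial and blood precursors, was at 105 and 115 FPKM in Control and 69.6 and 81.2 FPKM in HAND1_OE. Both HAND1_OE libraries were lower than both Control libraries. Its mean was 109.8 ± 7.49 FPKM and 75.4 ± 8.20 FPKM (SD, n = 2 each). The difference of -0.54 (standard error 0.156, 95% interval -0.93 to -0.15) missed the threshold once adjusted (limma adjusted p = 0.154). A longer protein-coding gene on the same strand, AC105001.2, overlaps SOX7, and it was listed at no more than 0.717 FPKM in any library.

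SOX17 (ENSG00000164736.5, chromosome 8, 54457935 to 54460888, plus strand), known from endoderm and arterial endothelium, had HAND1_OE libraries on both sides of the upper Control library. Its level was 35.2 and 37.5 FPKM in Control and 53.2 and 36.5 FPKM in HAND1_OE, and the groups overlapped. HAND1_OE replicate 1 stood above the other libraries. The difference was 0.27 (95% interval -0.25 to 0.80, limma adjusted p = 0.607). Without HAND1_OE replicate 1 the difference was 0.0055.

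The make-up of the SOXF group differed between the groups of libraries. SOXF genes summed to 267 and 275 FPKM in Control and to 174 and 166 FPKM in HAND1_OE. SOX18 held 47.6% and 44.5% of this sum in Control and 29.4% and 29.1% in HAND1_OE. SOX7 held 39.2% and 41.8% in Control and 40.0% and 48.9% in HAND1_OE. SOX17 held 13.2% and 13.6% in Control and 30.6% and 22.0% in HAND1_OE. SOX18 was thus the largest SOXF component in both Control libraries, and SOX7 in both HAND1_OE libraries. The ratio of SOX18 to SOX17 within a library, which does not depend on scaling between libraries, was 3.60 and 3.27 in Control and 0.964 and 1.33 in HAND1_OE. Groups lay apart in this ratio, with the smallest exact permutation p of 0.333 that the design allows.

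**Figure D2:**
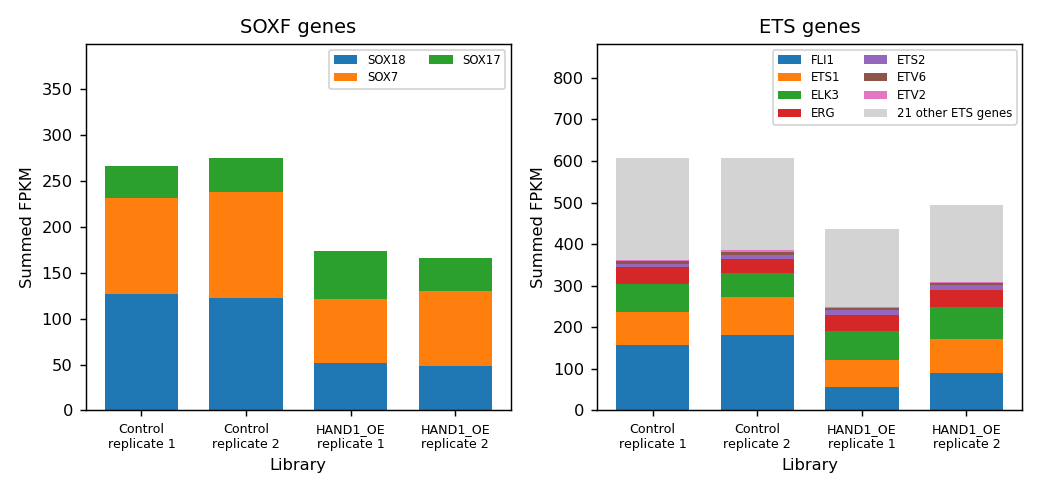
Stacked bars of summed FPKM in each library for the 3 SOXF genes (left) and the 28 ETS genes (right, the 7 members in colour and 21 others in grey). The SOXF sum is 267 and 275 FPKM in Control and 174 and 166 FPKM in HAND1_OE, and the FLI1 segment is the part of the ETS bars that shrinks most.

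FLI1 (ENSG00000151702.16, chromosome 11, 128686535 to 128813267, plus strand) had the largest difference among the ETS members. This factor maintains endothelial genes and drives megakaryocyte genes. Its level was 157 and 180.4 FPKM in Control and 57.4 and 91.2 FPKM in HAND1_OE. Groups did not overlap, but the HAND1_OE libraries differed from each other more than the Control libraries did. The mean was 169 ± 16.5 FPKM in Control and 74.3 ± 23.9 FPKM in HAND1_OE (SD, n = 2 each). The difference of -1.21 (standard error 0.247, 95% interval -1.82 to -0.59) was close to that of SOX18 in size but narrowly missed the threshold (limma adjusted p = 0.0649, unadjusted p = 0.00332). Single choices moved its adjusted p either way. It was 0.0488 when 1 FPKM was required in every library. When each gene above 0 in any library was tested, it was 0.278 (unadjusted p = 0.0182). The difference was -1.31 without Control replicate 1, -1.11 without Control replicate 2, -0.88 without HAND1_OE replicate 1 and -1.54 without HAND1_OE replicate 2.

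Other transcripts at the FLI1 locus were examined because no source used here says that strand was kept or used in counting, and without it reads from overlapping genes cannot be told apart. SENCR (ENSG00000254703.2, 128691672 to 128696023), a long non-coding RNA of vascular cells that lies antisense inside the span of FLI1, was at 7.86 and 9.80 FPKM in Control and 5.52 and 3.38 FPKM in HAND1_OE. Its difference of -0.87 did not pass (limma adjusted p = 0.148). AP001122.1 (ENSG00000245008.3, 128629653 to 128686922), whose end overlaps the first bases of FLI1, was at 2.13 and 2.07 FPKM in Control and 0.491 and 0.349 FPKM in HAND1_OE. It was called lower (difference -1.13, limma adjusted p = 0.0478). However, it passed the filter on low values only through Control, where it was high, so its call is no support for a fall at the locus. SENCR was lower in each HAND1_OE library than in either Control library, as were 30.1% of all genes tested. The FLI1 level was 20.0 and 18.4 times that of SENCR in Control and 10.4 and 27.0 times in HAND1_OE, and the groups overlapped in this ratio.

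ERG (ENSG00000157554.18, chromosome 21, 38380027 to 38661780, minus strand), the closest relative of FLI1 and a keeper of endothelial junction genes, was at 39.2 and 32.5 FPKM in Control and 38.5 and 41.3 FPKM in HAND1_OE. The groups overlapped. The difference was 0.16 (95% interval -0.24 to 0.55, limma adjusted p = 0.722), an interval that does not reach the fall measured for FLI1. Within a library the ratio of FLI1 to ERG was 4.01 and 5.56 in Control and 1.49 and 2.21 in HAND1_OE, again with the groups apart and an exact permutation p of 0.333 at best.

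ETS1 (chromosome 11, 128458761 to 128587558, minus strand), the founding member of the family and active in angiogenesis, was at 79.5 and 91.6 FPKM in Control and 63.0 and 81.5 FPKM in HAND1_OE. Its groups overlapped, and the difference of -0.25 did not pass (95% interval -0.71 to 0.21, limma adjusted p = 0.586). ELK3 (chromosome 12, 96194382 to 96269835, plus strand), a ternary complex factor that works with serum response factor and represses angiogenic genes until it is phosphorylated, was at 68.4 and 58.7 FPKM in Control and 70.0 and 76.4 FPKM in HAND1_OE. Although both HAND1_OE libraries were the higher ones, the difference of 0.20 did not pass (95% interval -0.18 to 0.59, adjusted p = 0.599).

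The remaining ETS members had lower levels. ETS2 (chromosome 21, 38805307 to 38824955, plus strand), a target of the RAS pathway, was at 9.22 and 10.98 FPKM in Control and 12.0 and 11.1 FPKM in HAND1_OE, with a difference of 0.18 (95% interval -0.23 to 0.59). ETV6 (chromosome 12, 11649854 to 11895402, plus strand), a repressor needed in blood stem cells, was at 7.18 and 7.67 FPKM in Control and 5.65 and 5.86 FPKM in HAND1_OE, with a difference of -0.32 (95% interval -0.72 to 0.080). ETV6 had tight replicates and groups that lay apart, but neither gene passed (limma adjusted p = 0.678 for ETS2 and 0.400 for ETV6). ETV2 (chromosome 19, 35641745 to 35644871, plus strand), the early initiator of the endothelial programme, was the lowest of the members at 2.37 and 3.57 FPKM in Control and 2.67 and 1.97 FPKM in HAND1_OE. Its groups overlapped and its interval was the widest after that of FLI1 (difference -0.25, 95% interval -0.85 to 0.35, adjusted p = 0.701).

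**Figure D3:**
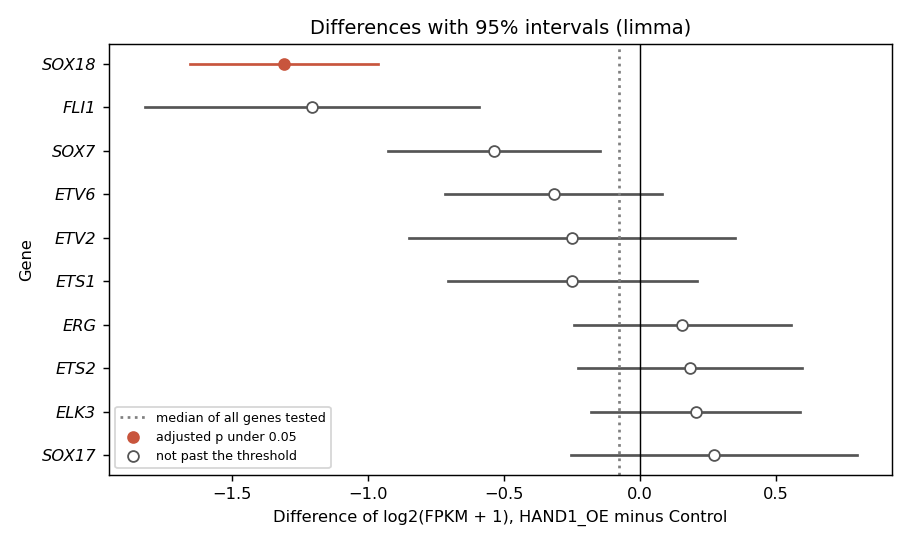
Difference of log2(FPKM + 1), HAND1_OE minus Control, for each member, with bars for the 95% interval from limma and a dotted line at the median of all genes tested (-0.078). SOX18 is marked as past the threshold, the intervals of FLI1 and SOX7 also lie below 0, and those of the other 7 genes span 0.

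The order of levels, which FPKM allows because it is scaled to transcript length, was steep in Control and flatter in HAND1_OE. In Control the members ran from FLI1 (mean 169 FPKM) through SOX18 (125), SOX7 (109.8), ETS1 (85.6), ELK3 (63.6), SOX17 (36.3), ERG (35.8), ETS2 (10.1) and ETV6 (7.42) to ETV2 (2.97). SOX17 and ERG overlapped there, and every other pair of neighbours lay apart. In HAND1_OE the upper members were SOX7 (75.4), FLI1 (74.3), ELK3 (73.2) and ETS1 (72.3), whose neighbours all overlapped. SOX18 (49.8), SOX17 (44.8) and ERG (39.9) came next, also with overlapping neighbours, followed by ETS2 (11.6), ETV6 (5.75) and ETV2 (2.32), which lay apart. In Control, FLI1 was above 97.1% of the genes tested and SOX18 above 95.8%, and in HAND1_OE they were above 92.0% and 87.7%.

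All 28 ETS genes together summed to 607 and 608 FPKM in Control and 436 and 494 FPKM in HAND1_OE. FLI1 held 25.9% and 29.7% of this sum in Control and 13.2% and 18.5% in HAND1_OE, whereas ELK3 held 11.3% and 9.66% in Control and 16.1% and 15.5% in HAND1_OE. The 7 members together held 59.8% and 63.4% in Control and 57.2% and 62.6% in HAND1_OE, which overlapped. Of the 21 other ETS genes, 13 were tested, with a median difference of -0.18. Unadjusted limma p-values were under 0.05 for 3 lower and 0 higher, beside 10.6% and 6.82% of all genes. After adjustment 1 was called lower and 0 higher, beside 2.11% and 2.04% of all genes. The called gene was SPI1, which encodes the myeloid factor PU.1. It went from 26.2 and 22.4 FPKM in Control to 3.79 and 1.52 FPKM in HAND1_OE (difference -2.86, limma adjusted p = 0.0149).

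Of the 17 other SOX genes, 9 were tested, and limma called 0 of them in either direction. At an unadjusted p under 0.05, 5 were lower and 1 was higher, beside 10.6% and 6.82% of all genes. Their median difference was -0.80. The lower ones, named after their values were seen, were SOX11, SOX13, SOX9, SOX6 and SOX8, with differences from -1.09 to -0.80, and the higher one was SOX21 (0.90), which was near 1 FPKM in HAND1_OE. SOX9 passed the filter on low values only through Control, and SOX21 only through HAND1_OE. SOX13, the most abundant of the lower ones, was at 33.1 and 42.8 FPKM in Control and 14.0 and 22.1 FPKM in HAND1_OE (limma adjusted p = 0.0995).

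Endothelial genes that ETS or SOXF factors are known to bind or activate formed a list of 30 genes. Of these 30, all were tested, 2 were called higher and 3 lower, beside 2.04% and 2.11% of all genes. At an unadjusted p under 0.05 (limma), 5 were higher and 9 lower, beside 6.82% and 10.6% of all genes. Groups lay apart upward for 7 and downward for 13, beside 16.2% and 30.1% of all genes. The median difference was 0.024. CLDN5, a tight junction protein, fell from 85.0 and 66.1 FPKM to 15.2 and 14.3 FPKM (difference -2.27, limma adjusted p = 0.00700), and MYCT1, a nuclear protein of endothelial and blood precursors, fell from 57.3 and 66.6 FPKM to 21.3 and 27.8 FPKM (-1.31, adjusted p = 0.0258). VWF, a clotting glycoprotein of endothelium, rose from 31.3 and 14.6 FPKM to 107 and 95.4 FPKM (2.18, adjusted p = 0.0338). The other called genes were S1PR1 (-0.94) and ARHGAP29 (1.03). Over the whole list, 16 differences were above 0 and 14 below.

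Among 20 transcription factors that act with ETS and SOXF proteins in endothelium, all were tested. Limma called 1 higher and 3 lower, beside 2.04% and 2.11% of all genes. At an unadjusted p under 0.05, 4 were higher and 6 lower, beside 6.82% and 10.6% of all genes. The median difference was -0.071. HHEX, a homeobox factor of blood and vessel precursors, fell from 93.7 and 91.7 FPKM to 36.6 and 41.7 FPKM (difference -1.23, limma adjusted p = 0.0168). LMO2, a bridging protein of blood and endothelial factor complexes, fell from 131 and 161 FPKM to 66.0 and 57.9 FPKM (-1.22, adjusted p = 0.0258). EPAS1, a hypoxia-inducible factor, rose from 26.1 and 34.2 FPKM to 74.8 and 83.0 FPKM (1.37, adjusted p = 0.0220), and HEY2, a Notch target, was the other gene called (-1.19).

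**Figure D4:**
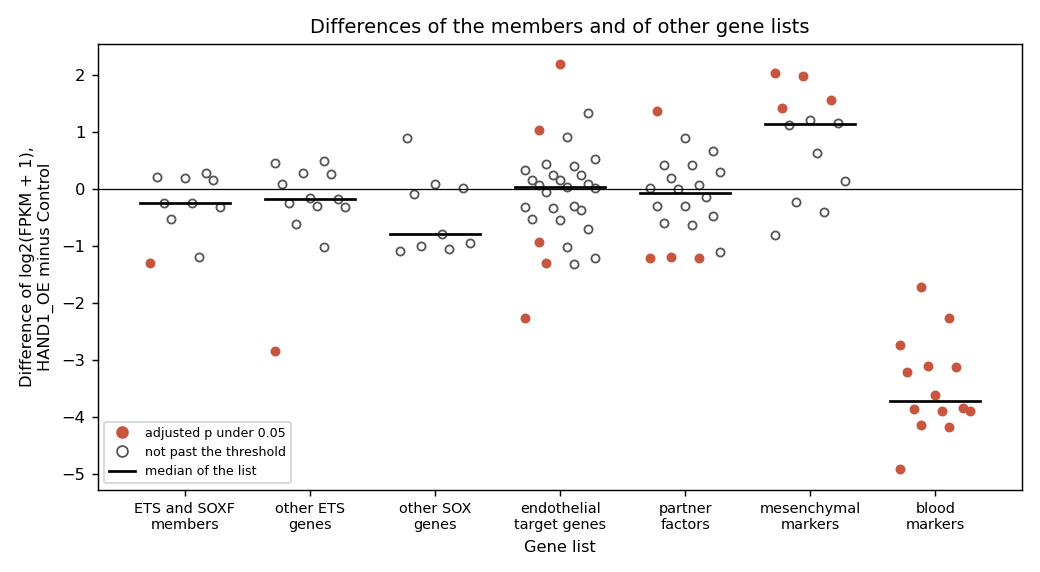
Difference of log2(FPKM + 1), HAND1_OE minus Control, for each tested gene of 7 lists, with filled points for limma adjusted p under 0.05 and bars for list medians. The members have a median of -0.25, the endothelial target genes 0.024, the mesenchymal markers 1.13 and the blood markers -3.73.

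Markers of other cells moved between the groups. CD31 is also found on blood cells, and blood markers fell: 14 of 16 were tested and all 14 were called lower, with a median difference of -3.73, and their summed level went from 998 and 1383 FPKM in Control to 76.0 and 59.6 FPKM in HAND1_OE. The largest falls were those of GYPB (-4.93), a red cell membrane glycoprotein, and of the globins HBE1 (-4.19) and HBG2 (-4.15). PTPRC (CD45) and MPO were under 1 FPKM in every library. Of 14 mesenchymal markers, 12 were tested, 4 were called higher (PDGFRB, POSTN, FBN1 and LUM) and 0 lower, and their sum went from 924 and 836 FPKM to 1249 and 1264 FPKM. For 8 pluripotency markers the sum was 75.3 and 90.7 FPKM in Control and 54.7 and 71.7 FPKM in HAND1_OE. Limma called 0 of 5 tested genes (unadjusted, 1 passed upward and 1 downward). For 4 lymphatic markers the sum was 58.9 and 67.5 FPKM and 37.6 and 49.4 FPKM, with 0 of 3 called (unadjusted, 0 upward and 1 downward). Most of it was FLT4, also among the target genes, at 56.2 and 62.1 FPKM in Control and 34.8 and 46.2 FPKM in HAND1_OE. FLI1, LMO2 and SPI1 are used by blood cells, and the part of these marker changes in the differences of SOX18, FLI1 and SOX7 was not tested. In such bulk samples, fewer cells of a type and less RNA per cell cannot be told apart.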

How the data were processed

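RNA from CD31+ cells (total RNA, Illumina TruSeq kit) was analysed in 4 libraries, 2 per group, grouped by sample title. The authors deposited a single table whose values were taken to be FPKM, since the study plots that unit, the values are not whole and their sums differ. The submitters' processing notes name hg19, BWA, Bowtie and RSEM, with no versions or roles. However, of 55605 genes matched to GENCODE 29 by versioned ID, 55583 had its GRCh38 start and end, so coordinates are given on GRCh38, counted from 1. FPKM holds no counts, so counting error is unknown.

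The 45 Y copies of pseudoautosomal genes and 91 further rows sharing a gene ID were left out. Genes that reached 1 FPKM in 2 or more libraries were compared as log2(FPKM + 1), HAND1_OE minus Control, in limma 3.58.1 with a mean-variance trend (R 4.3.3, two-sided). P-values were adjusted by Benjamini-Hochberg over all genes tested, and differences understate changes of low genes. The fit was tested on simulated data. Members, gene lists (written from general knowledge) and tests were chosen with earlier results of these data known. Named genes are HAND1, all members, genes overlapping them, and up to 3 called genes with the largest differences per list. EGFL7, ROBO4, EMCN, S1PR1, ARHGAP29, HEY2, LUM and the SOX genes outside the SOXF group, like the ratios to other genes within a library, were added after values were seen. Alternatives were a pseudocount of 0.1, 2 other filters, quantile and median-ratio scaling, no trend, a replicate block, a fold of at least 2 and each library left out.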

Additional observations from a re-analysis of the deposited data

How the results depend on the processing

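Over 11 alternatives for each member, no difference changed sign. SOX18 kept its call in 10 of them, with differences from -1.35 to -1.20. FLI1 ranged from -1.54 to -0.88 and passed in 4, SOX7 ranged from -0.65 to -0.43 and passed in 1, and none of the other 7 members passed in any. With all genes above 0 tested (29860 in place of 14622), HAND1 kept a difference of 5.20 but not its call (limma adjusted p = 0.153), 0 members were called lower, and 0 genes were called at all, while unadjusted p-values under 0.05 were found for 1458 genes upward and 2352 downward. With 1 FPKM required in every library, 2 members were called lower (SOX18 and FLI1), beside 1.81% of all genes. Leaving out a library gave 1 to 2 members called lower, and the 2 without Control replicate 1 or HAND1_OE replicate 2 were again SOX18 and FLI1. The share of all genes called lower was 1.51% to 3.04% in these fits. A lone library is there assumed to vary like the others. The median difference of the members was -0.17 after quantile normalization, -0.15 after median-ratio scaling and -0.36 to -0.089 when a library was left out. The cause of these shifts was not tested. Members called higher stayed at 0 in all 12 alternatives.

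With the replicate number as a block, 3 members were called lower: SOX18, FLI1 (adjusted p = 0.0227) and SOX7 (adjusted p = 0.0341). Over all genes this replicate block gave 597 calls higher and 712 lower, beside 299 and 309 without it, so 4.87% of all genes were called lower. Deviations of libraries with the same number correlated at 0.383 across genes, but the labels do not say that a number marks a shared culture. Tests planned for a table of counts were not run, since these values are FPKM.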
